A study of Homo sapiens with 24 samples.

Results

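Glycolysis and the pentose phosphate pathway were followed through 33 genes in 4 RNA-seq experiments on OE33, an established human esophageal adenocarcinoma line. The genes were chosen by symbol, from the glucose carriers to the lactate and pyruvate carriers and the pentose phosphate enzymes, and each was found once among the 61860 Ensembl identifiers of the count tables. Each experiment had 3 treated and 3 control libraries, and every group was labelled as OE33. The HFD and ND groups were subcutaneous OE33 xenografts of male BALB/c-nu nude mice, an immunodeficient strain, bought at 4 weeks of age and fed a high-fat diet (HFD, 35% fat) or a normal diet (ND, 4.3% fat) for 8 weeks before injection and for the 21 days until the tumors were removed. By the study's methods, HFD mice were those whose weight exceeded a limit set from the ND mice. The HA-TRIM15 and EV groups were cultured cells transfected for 48 hours with a plasmid for tagged TRIM15, a ubiquitin ligase, or with the empty vector (EV). The shYY2 group and its shControl group, and the shFOXRED1 group and a shControl group of its own, were cultured cells transfected for 72 hours with a short hairpin RNA plasmid against YY2, a zinc finger transcription factor, against FOXRED1, an assembly factor of respiratory complex I, or with a control hairpin. Which of the study's hairpins was sequenced was not stated, so a hairpin and its target cannot be told apart.

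Glycolysis splits glucose into pyruvate with a net gain of ATP, and lactate dehydrogenase turns pyruvate into lactate, which monocarboxylate carriers export. The pentose phosphate pathway branches off at glucose 6-phosphate. Its oxidative arm yields NADPH and its non-oxidative arm exchanges ribose 5-phosphate, a precursor of nucleotides, with glycolytic sugars. Tumor cells commonly run glycolysis to lactate even with oxygen present, and many of these genes are targets of the hypoxia-inducible factors and of MYC.

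The libraries held 14299807 to 45994561 counts. Levels are given as CPM, counts scaled to a common library size with TMM factors that correct for library composition. A gene was called higher or lower where its p, adjusted by Benjamini-Hochberg across every gene in the fit, was under 0.05 in the quasi-likelihood test of edgeR. Labels were first checked on the targeted genes. Counts of TRIM15 were 111, 130 and 181 with HA-TRIM15 and 0 in each EV library, and in the xenografts 14, 12 and 24 with HFD and 1, 0 and 0 with ND. YY2 had 11, 12 and 11 counts in the shYY2 libraries against 43, 40 and 46 in their controls, and FOXRED1 had 183, 207 and 129 counts in the shFOXRED1 libraries against 322, 259 and 254. Each target moved as labelled, with no overlap between the groups. FOXRED1 was also lower with shYY2 (log2 fold change -0.89 ± 0.064), where 38.1% of all genes tested were called lower. It was lower with HA-TRIM15 (-0.24 ± 0.052), where 9.53% were, and was not called with HFD (-0.058 ± 0.056). YY2 was not called with HFD, HA-TRIM15 or shFOXRED1. All 7 epithelial markers of OE33, among them EPCAM and KRT19, were above 1 CPM in every group. In the xenografts the 5 endothelial, 4 adipocyte and 4 erythroid markers each summed to under 1 CPM in every library (0.0546 to 0.577 CPM with HFD for the endothelial list), while COL1A1, CD14 and ITGAM were above 1 CPM in both diet groups and in every cultured group as well. These markers are human genes and the host was a mouse, so their low values cannot tell how much host tissue was present. How mouse reads were handled was not given in the sources used here. Replicate 3 of shFOXRED1 stood apart from the other libraries of its group, with a chi-square per gene of 7.03 and 8.12 against them, so the counts for that experiment are given with and without it. Labels gave no batch, and nothing said whether the replicates were separate cultures or animals, so p-values measure the spread between libraries, which may be technical.

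Levels between genes were compared only per kilobase of exon. In the ND xenografts GAPDH, glyceraldehyde 3-phosphate dehydrogenase, stood highest at 625 ± 23.5 CPM per kb (SD, n = 3), followed by LDHA at 288 ± 9.48 CPM per kb and ENO1 at 220 ± 5.96 CPM per kb. PKM at 217 ± 3.68 CPM per kb did not differ from ENO1 beyond their spread. GAPDH ranked 1 in all 4 control groups, and SLC2A3, the glucose carrier GLUT3, ranked 33 in all 4. Among isozymes, PFKP was the leading phosphofructokinase gene, with 76.4 ± 2.38 CPM per kb against 14.9 ± 0.653 for PFKL and 12.5 ± 0.457 for PFKM in the ND group. LDHB, the heart-type lactate dehydrogenase subunit, stood at only 3.68 ± 0.294 CPM per kb there. Counting could have moved reads of some members to other genes: 42.3% of the exon bases of ALDOA lie in a second gene on its strand, which held 2.84% to 19.9% as many counts as ALDOA itself, and 33.4% of those of LDHB lie in another gene, which held at most 1 count. The 13 annotated pseudogenes of PGAM1 held 0.887% to 5.88% as many counts as PGAM1. Exons of MPC2 and RPE overlap antisense genes over 22.5% and 23.8% of their bases, and whether counting used the strand was not given in the sources used here. The levels of these genes are uncertain, as are those of SLC2A3, which has a near-identical paralog, SLC2A14.

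Across the pathway the 4 experiments moved the genes differently, and the map of fold changes shows this gene by gene. With HFD, 24 of 32 tested members were called, 19 higher and 5 lower, beside 49.5% of all 17012 genes tested that were called, 25.6% higher and 23.9% lower. With HA-TRIM15, 0 of 32 were higher and 17 lower, beside 22.1% of all 15745 genes called, 12.5% higher and 9.53% lower. With shYY2, 26 of 33 were called, 6 higher and 20 lower, which is near the background of 75% of all 16006 genes called, 36.8% higher and 38.1% lower. With shFOXRED1, 19 of 32 were called, 4 higher and 15 lower, beside 36.6% of all 15730 genes called, 16.8% higher and 19.7% lower. The median log2 fold change of the members was 0.13, -0.13, -0.26 and -0.16 in this order, while that of all genes tested lay between -0.012 and 0.012. SLC2A1, the main glucose carrier GLUT1, was the one member lower in all 4 comparisons, by log2 fold changes of -0.17, -0.13, -0.23 and -0.25. With shYY2, 7 members, SLC2A3 among them, were called with a change of at least 2-fold, against 0 with HFD, 0 with HA-TRIM15 and 1 with shFOXRED1 (all genes: 19.6%, 3.83%, 0.724% and 3.46%).

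**Figure D1:**
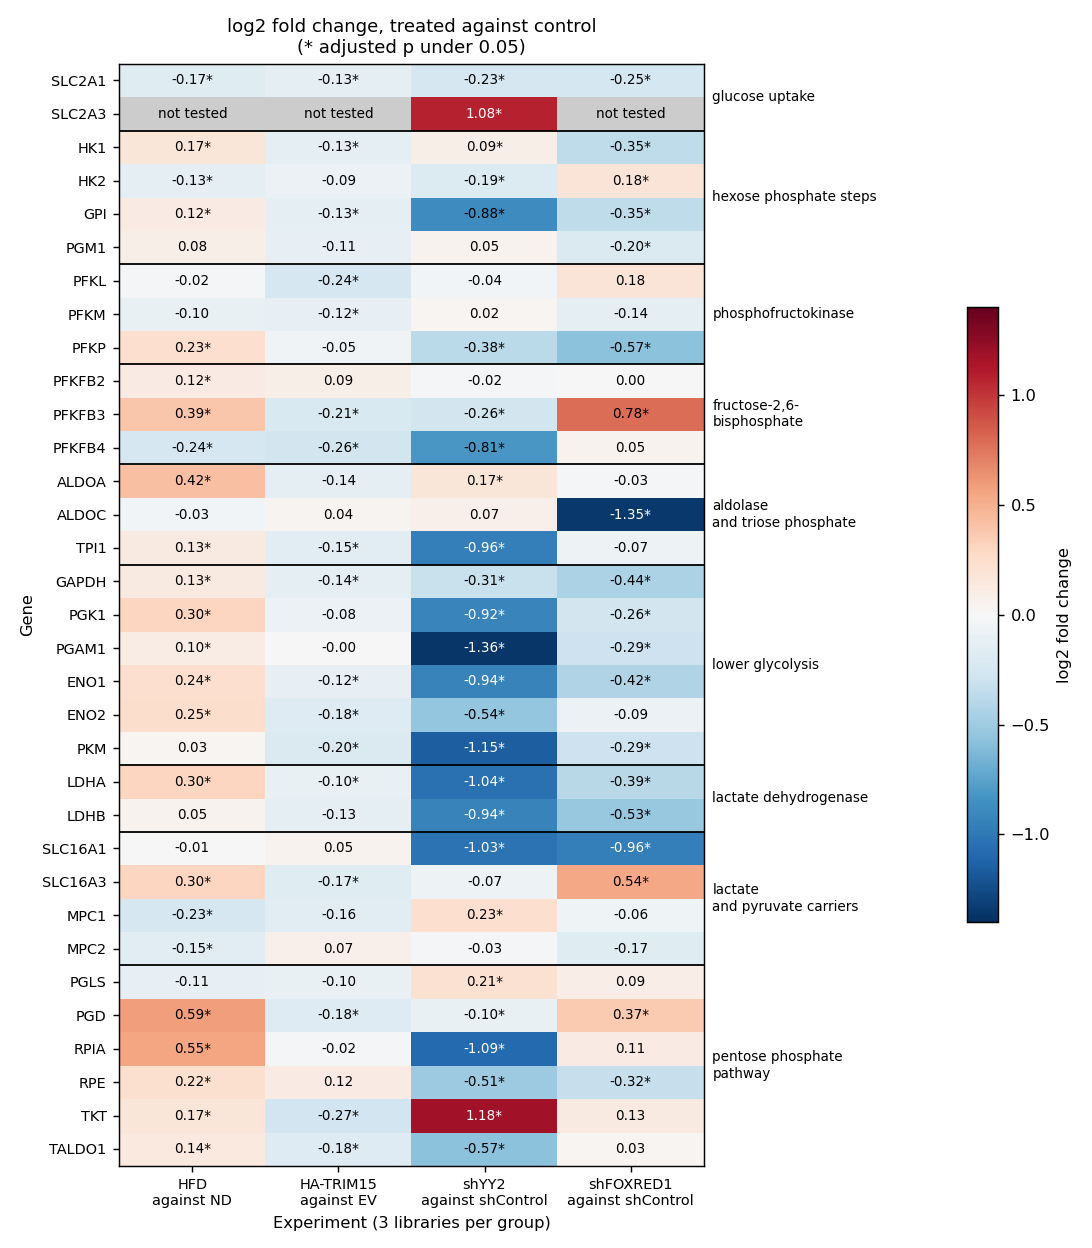
Map of the log2 fold change of each of the 33 members (rows, ordered by step and grouped by role) in the 4 comparisons (columns, 3 libraries per group), colored from blue (lower in the treated group) to red (higher), with a star where the adjusted p was under 0.05 and grey where the gene was not tested. The shYY2 column is blue from TPI1 to LDHB, with PGAM1 at -1.36, and red at TKT with 1.18.

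The share of all counts that fell on the members gives a view that does not depend on TMM scaling. From hexokinase to lactate dehydrogenase, 17 genes together took 1.04 ± 0.0133% of counts with HFD and 0.998 ± 0.0128% with ND (SD, n = 3). HA-TRIM15 libraries gave 1.14 ± 0.0249% against 1.28 ± 0.00281% with EV. The shYY2 libraries gave 0.638 ± 0.00733% against 1.07 ± 0.0233% in their controls, and the shFOXRED1 libraries 0.479 ± 0.0167% against 0.577 ± 0.0189%. Treated and control libraries did not overlap in any of the 4 experiments (exact permutation test, two-sided, p = 0.1 each, the smallest that 3 against 3 libraries allow). Among the roles from hexokinase to lactate dehydrogenase, only lactate dehydrogenase separated by itself with HFD (0.212 ± 0.00312% against 0.187 ± 0.00592%, exact p = 0.1). Lower glycolysis was at 0.645 ± 0.0134% against 0.628 ± 0.0143% (exact p = 0.3). The hexose phosphate, phosphofructokinase and aldolase roles overlapped too (exact p = 0.3, 0.6 and 0.3). Outside these roles, glucose uptake was lower with HFD (0.0218 ± 0.000332% against 0.0265 ± 0.0015%, exact p = 0.1). The fructose-2,6-bisphosphate genes (0.0331 ± 0.000513% against 0.0291 ± 0.000295%) and the lactate and pyruvate carriers (0.0569 ± 0.000669% against 0.0546 ± 0.00106%) were higher (exact p = 0.1 each). The 6 pentose phosphate genes went another way in the knockdowns: their share was 0.12 ± 0.00227% with shYY2 against 0.0834 ± 0.00215%, and 0.113 ± 0.00368% with shFOXRED1 against 0.0995 ± 0.00291% (exact p = 0.1 each). In the HFD and HA-TRIM15 experiments that share was 0.104 ± 0.000851% against 0.0961 ± 0.00317% and 0.0838 ± 0.00172% against 0.0969 ± 0.00149% (exact p = 0.1 each). In bulk RNA, fewer cells of a kind and less RNA per cell cannot be told apart.

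**Figure D2:**
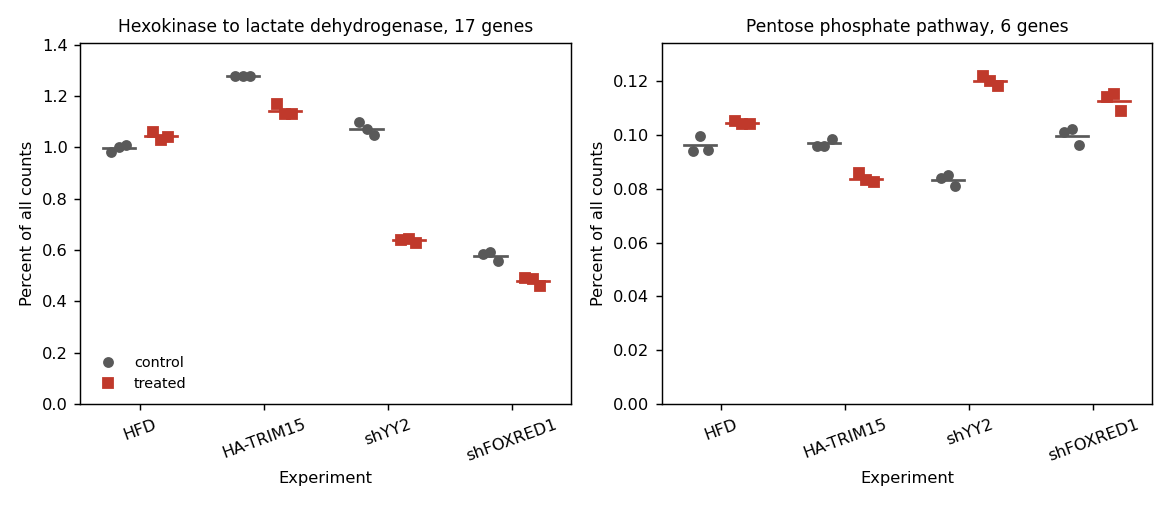
Percent of all counts in a library that fell on the 17 genes from hexokinase to lactate dehydrogenase (left) and on the 6 pentose phosphate genes (right), for control (grey circles) and treated libraries (red squares) of each experiment, with lines at the means. With shYY2 the left share fell to 0.638% while the right share stood at 0.12% against 0.0834%.

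The HFD xenografts were compared with ND xenografts to see how diet of the host moved the pathway in the tumor. The largest rises were those of PGD, RPIA, ALDOA and PFKFB3. By role, 5 of 6 pentose phosphate genes were higher, and 5 of 6 genes of lower glycolysis were higher by log2 fold changes of 0.10 to 0.30. PGD, the second dehydrogenase of the oxidative arm, was at 182, 178 and 183 CPM with HFD and at 119, 123 and 119 CPM with ND. The HFD libraries lay well above the ND libraries, with a log2 fold change of 0.59 ± 0.035 (SE) and an adjusted p of 8.03e-10. RPIA, ribose 5-phosphate isomerase, was at 21.8, 23.7 and 22.4 CPM against 15.2, 15.8 and 15.4 CPM, again without overlap (log2 fold change 0.55 ± 0.061, adjusted p = 1.54e-06). ALDOA, the muscle-type aldolase, was at 49.5, 54.8 and 56.7 CPM against 37.1, 41.2 and 42.1 CPM. Its lowest HFD library stood above its highest ND library (0.42 ± 0.057, adjusted p = 1.23e-05), and the overlapping gene held 6.47% to 7.47% as many counts with HFD and 9.72% to 10.1% with ND. PFKFB3, which makes the phosphofructokinase activator fructose 2,6-bisphosphate, was at 263, 255 and 255 CPM against 195, 203 and 193 CPM, with no overlap (0.39 ± 0.035, adjusted p = 1.34e-07). Further down the path LDHA was at 2192, 2235 and 2167 CPM against 1834, 1723 and 1812 CPM, and PGK1, phosphoglycerate kinase, at 1045, 1001 and 1026 CPM against 822, 812 and 857 CPM. Both were higher in every HFD library than in any ND library, each with a log2 fold change of 0.30.

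The 5 members lower with HFD were PFKFB4, both subunits of the mitochondrial pyruvate carrier, the glucose carrier SLC2A1 and HK2, while the other hexokinase, HK1, was higher (0.17 ± 0.039). PFKFB4, the testis-type relative of PFKFB3, was at 16.3, 16.1 and 16.1 CPM against 19.3, 19 and 19.1 CPM with ND. The pyruvate carrier genes MPC1 and MPC2 gave log2 fold changes of -0.23 ± 0.049 and -0.15 ± 0.055 (adjusted p = 0.00102 and 0.0307). MPC1 was at 35.5, 37.1 and 34.5 CPM against 40.2, 43.3 and 40.9 CPM, and MPC2 at 23.4, 22.6 and 21.9 CPM against 25.8, 25.1 and 24.3 CPM. SLC2A1 was at 231, 225 and 225 CPM against 250, 271 and 244 CPM (-0.17 ± 0.04, adjusted p = 0.00226). The diet groups of these 4 genes did not overlap, and HK2, the inducible hexokinase, was the fifth lower gene at -0.13 ± 0.035. SLC16A3, the lactate exporter MCT4, was higher (0.30 ± 0.039), while its relative SLC16A1 (MCT1) was at -0.0062 ± 0.038 and was not called with TMM scaling. Of 32 members tested, 25 had groups that did not overlap, beside 56.2% of all genes.

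These counts with HFD rest on the scaling. TMM factors were 0.961 to 0.965 in the HFD libraries and 1.04 in the ND libraries, and with library totals in their place, an alternative added after the data were seen, 11 members were higher and 11 lower, and the share of all calls that were higher moved from 51.7% to 30.4%. The median of all genes then moved by -0.11, and the member median stood 0.14 above it under either scaling. PGD (0.48), RPIA (0.44), ALDOA (0.31), PFKFB3 (0.28) and LDHA (0.19) were called higher under both scalings, while GAPDH (0.02), TPI1 (0.021), GPI (0.01), TKT (0.064) and TALDO1 (0.028) were not called with library totals, nor were HK1 and PFKFB2. PKM turned from 0.03 to -0.08, where it was called lower, and PGAM1 from 0.10 to -0.0088. Also called lower with library totals but not with TMM were PGLS (-0.22), PFKM (-0.21), ALDOC (-0.14), PFKL (-0.13) and SLC16A1 (-0.12).

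Overexpressed TRIM15 was compared with EV to see what the ligase alone does to the same genes in culture. No member was called higher, and the 17 lower ones spread from SLC2A1 to TALDO1 with small changes, none past a log2 fold change of -0.27. TKT, the transketolase of the non-oxidative arm, was at 369, 334 and 347 CPM with HA-TRIM15 and at 417, 416 and 429 CPM with EV. All treated libraries lay below all controls (log2 fold change -0.27 ± 0.036, adjusted p = 0.000134). PFKFB4 was at 12.8, 14.5 and 13.5 CPM against 16.2, 16.3 and 16.1 CPM, PFKL, the liver-type phosphofructokinase, at 99.6, 91.8 and 91 CPM against 113, 111 and 110 CPM, and PFKFB3 at 184, 172 and 168 CPM against 201, 200 and 204 CPM. None of these groups overlapped, with log2 fold changes of -0.26 ± 0.074, -0.24 ± 0.041 and -0.21 ± 0.037 (adjusted p = 0.0223, 0.000876 and 0.0012). Pyruvate kinase followed, with PKM at 2499, 2320 and 2270 CPM against 2730, 2700 and 2736 CPM (-0.20 ± 0.032, adjusted p = 0.000427). Among the 15 members not called, PFKFB2 was at 0.086 ± 0.037, RPE, the epimerase of the pentose phosphates, at 0.12 ± 0.045 and ALDOC, the brain-type aldolase, at 0.036 ± 0.064. Groups did not overlap for 22 of 32 members, beside 37.7% of all genes, and 17.6% of all genes had every treated library below. The number of lower members varied with single libraries: leaving out EV replicate 1, or EV replicate 3, left 11, and leaving out the first HA-TRIM15 replicate gave 21. The genes called lower over the whole table moved likewise, from 1501 to 855, 787 and 2506. With a fold of at least 1.2 as a second condition it was 1 (TKT), beside 7.63% of all genes. With library totals the share of all calls that were higher moved from 56.8% to 40.6%, and 0 members were higher and 21 lower.

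Knockdown of YY2 gave the largest changes, and most of them lay below the aldolase step. All 6 genes of lower glycolysis and both lactate dehydrogenase genes were lower. The log2 fold changes of the former had their median at -0.93. PGAM1, phosphoglycerate mutase, was at 150, 143 and 146 CPM with shYY2 and at 390, 373 and 363 CPM in the controls. Its controls were 2.56 times as high (log2 fold change -1.36 ± 0.034, adjusted p = 1.1e-14). PKM was at 873, 886 and 871 CPM against 1966, 1949 and 1928 CPM, and LDHA at 1044, 1014 and 1010 CPM against 2146, 2014 and 2134 CPM. Neither came near an overlap, with log2 fold changes of -1.15 ± 0.024 and -1.04 ± 0.029 (adjusted p = 1.68e-15 and 3.37e-14). TPI1, triose phosphate isomerase (-0.96), ENO1, the main enolase (-0.94), LDHB (-0.94), PGK1 (-0.92) and GPI, glucose 6-phosphate isomerase (-0.88), were close behind. GAPDH, the step between TPI1 and PGK1, fell less: it was at 1620, 1620 and 1586 CPM against 2077, 2026 and 1875 CPM, again with no overlap (-0.31 ± 0.032, adjusted p = 3.35e-07). SLC16A1 was at 107, 109 and 105 CPM against 217, 217 and 223 CPM (-1.03 ± 0.03), while SLC16A3 was at 304, 292 and 294 CPM against 308, 327 and 300 CPM. The SLC16A3 groups overlapped (-0.07 ± 0.034, adjusted p = 0.077).

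The upper steps were mixed with shYY2, with GPI and PFKFB4 lower by more than GAPDH and ENO2. HK1, the constitutive hexokinase, was higher by 0.086 ± 0.029 and HK2 lower by -0.19 ± 0.03. PFKP was lower (-0.38 ± 0.035), whereas PFKL at -0.036 ± 0.045 and PFKM at 0.024 ± 0.035 were not called. PFKFB4 was at 10.2, 10.7 and 10.3 CPM against 18.4, 19.7 and 16.7 CPM (-0.81 ± 0.082, adjusted p = 2.24e-07), with all shYY2 libraries below the controls. ALDOA and MPC1 were among the 6 higher members: ALDOA was at 53.6, 52 and 54.3 CPM against 47.9, 49.8 and 45.1 CPM (0.17 ± 0.045, adjusted p = 0.00378), and MPC1 at 30.2, 29 and 29 CPM against 24.5, 25.2 and 25.7 CPM (0.23 ± 0.053, adjusted p = 0.00119). Neither pair of groups overlapped, but the gene that shares exons with ALDOA held 2.84% to 4.04% as many counts with shYY2 and 7.94% to 11.3% in the controls, and its part in the ALDOA result was not tested. SLC2A3 passed the filter on low counts in this comparison only, and there through the shYY2 libraries, with 22, 20 and 22 counts against 9, 12 and 11. Its call as higher was therefore favoured by the filter and is not read as a result: without it 5 members were higher, and 6 were called with a change of at least 2-fold. In the other experiments it had at most 12 counts in a library and was not tested.

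Inside the pentose phosphate pathway shYY2 moved genes in opposite directions. TKT was at 862, 840 and 818 CPM with shYY2 and at 374, 382 and 357 CPM in the controls. This was a 2.27-fold rise with wide separation of the groups (log2 fold change 1.18 ± 0.031, adjusted p = 2.33e-14). RPIA, which feeds ribose 5-phosphate to transketolase, was at 12.8, 11.8 and 13.2 CPM against 26.4, 26.2 and 27.9 CPM (-1.09 ± 0.068, adjusted p = 5.48e-10). The other genes of the non-oxidative arm were lower as well, RPE at -0.51 ± 0.034 and TALDO1, transaldolase, at -0.57 ± 0.032, with no overlap in either. In the oxidative arm PGLS, the lactonase, was at 28.2, 30.5 and 29 CPM against 25.4, 27.6 and 23.2 CPM (0.21 ± 0.066, adjusted p = 0.00999), and PGD at -0.10 ± 0.03. The rise of the summed share of these 6 genes was carried by TKT, the most highly counted of them. Of 33 members, 26 had groups that did not overlap, beside 76.3% of all genes, 37.5% with all shYY2 libraries above and 38.8% with all below. Changes of at least 1.2-fold were called for 19 members, beside 63.3% of all genes. SLC2A3, which is not read as a result, is counted in both the 26 and the 19.

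**Figure D3:**
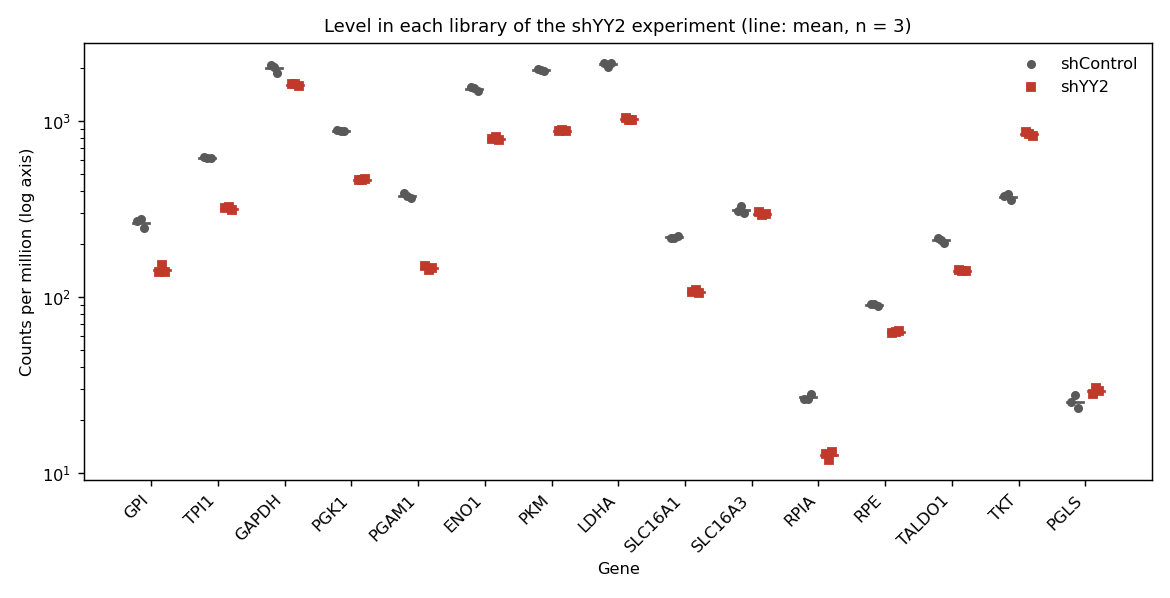
CPM (log axis) of 15 members in each of the 3 shControl (grey circles) and 3 shYY2 libraries (red squares), with lines at the means. Points of a group lie close together, TKT is the gene with the clear rise (840 against 371 CPM on average) and SLC16A3 shows overlapping groups beside the fall of SLC16A1.

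Promoter sequence was read for the 4 members that rose most and the 4 that fell most with shYY2 among those of at least 1 CPM, as YY2 is a DNA-binding factor. RefSeq start sites (GRCh38.p14) were found for 30 of the 33 members, 59 starts in all, and the 250 bases before each start were searched on both strands. The hypoxia response core ACGTG was present before 30.5% of member starts and 18.5% of all 35116 starts. Its variant GCGTG was present before 30.5% of member starts and 32.2% of all starts. The E-box CACGTG, which contains the first core, was present before 10.2% and 6.34%. The YY motif AANATGG was present before 8.47% and 11.6%. Before the first listed start of LDHA 2 E-boxes and a further hypoxia core were found, and before its second start the variant core and a YY motif. RPIA held the variant core. Genes that rose held them too: ALDOA had the first core before all 3 of its starts and an E-box before 1 of them, and MPC1 held the variant core at 2 positions. None of these letters was found before the starts of PGAM1, PKM, TKT and PGLS, which says nothing of the factor itself. The windows below show LDHA at both starts and RPIA among the genes that fell, PGAM1 as the one that fell most, and TKT as the one that rose most. Each is printed 5′ to 3′ in the direction of its gene, and capitals mark the motif matches, on either strand.
LDHA, first start, chr11:18394313-18394562, plus strand: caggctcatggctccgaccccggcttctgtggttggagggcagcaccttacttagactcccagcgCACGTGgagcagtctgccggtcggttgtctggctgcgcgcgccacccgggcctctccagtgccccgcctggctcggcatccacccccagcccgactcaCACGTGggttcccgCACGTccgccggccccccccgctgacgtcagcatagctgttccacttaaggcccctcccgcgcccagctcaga
LDHA, second start, chr11:18396101-18396350, plus strand: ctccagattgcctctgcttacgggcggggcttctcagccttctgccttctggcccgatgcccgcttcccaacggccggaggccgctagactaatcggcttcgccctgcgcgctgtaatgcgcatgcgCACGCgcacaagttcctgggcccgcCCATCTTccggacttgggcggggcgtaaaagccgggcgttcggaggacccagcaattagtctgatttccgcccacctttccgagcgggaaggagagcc
RPIA, chr2:88691423-88691672, plus strand: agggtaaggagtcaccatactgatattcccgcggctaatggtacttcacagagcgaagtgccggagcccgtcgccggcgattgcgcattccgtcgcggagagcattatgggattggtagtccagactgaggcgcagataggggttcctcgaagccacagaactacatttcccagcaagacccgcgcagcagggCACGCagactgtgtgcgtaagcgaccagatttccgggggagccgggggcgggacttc
PGAM1, chr10:97427568-97427817, plus strand: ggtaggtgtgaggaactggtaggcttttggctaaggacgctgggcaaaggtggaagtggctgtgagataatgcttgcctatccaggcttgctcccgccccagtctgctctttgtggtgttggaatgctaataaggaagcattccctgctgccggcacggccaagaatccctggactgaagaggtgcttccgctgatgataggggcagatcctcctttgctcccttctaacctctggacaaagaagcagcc
TKT, chr3:53256023-53256272, minus strand: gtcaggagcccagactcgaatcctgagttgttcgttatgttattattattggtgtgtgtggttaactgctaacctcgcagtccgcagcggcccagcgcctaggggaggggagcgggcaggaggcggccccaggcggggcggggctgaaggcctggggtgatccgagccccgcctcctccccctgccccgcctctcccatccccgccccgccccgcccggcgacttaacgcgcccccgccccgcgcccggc

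Knockdown of FOXRED1 was compared with its own shControl libraries. Lower glycolysis fell again but less, with 5 of 6 genes lower and both lactate dehydrogenase genes lower, and 4 other members rose. ALDOC was at 10.5, 12.7 and 9.58 CPM with shFOXRED1 and at 29.8, 27.4 and 26.5 CPM in the controls. It had the largest fall of all members (log2 fold change -1.35 ± 0.11, adjusted p = 7.04e-08), with no overlap. SLC16A1 was at 89.2, 91.3 and 106 CPM against 183, 184 and 190 CPM, and PFKP at 193, 181 and 163 CPM against 268, 268 and 258 CPM. Both were lower in every treated library (-0.96 ± 0.066 and -0.57 ± 0.06, adjusted p = 6.9e-09 and 1.25e-06). LDHB was at 14, 13.1 and 15.1 CPM against 20.1, 20.5 and 20.3 CPM (-0.53 ± 0.10, adjusted p = 0.000479). GAPDH (-0.44), ENO1 (-0.42), LDHA (-0.39), HK1 (-0.35), GPI (-0.35), PKM (-0.29), PGAM1 (-0.29), PGK1 (-0.26) and PGM1, phosphoglucomutase (-0.20), were lower too, whereas TPI1 at -0.071 ± 0.065 and ENO2, the neuronal enolase, at -0.087 ± 0.093 were not called.

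The members that rose with shFOXRED1 were PFKFB3, SLC16A3, PGD and HK2. PFKFB3 was at 287, 285 and 258 CPM against 155, 168 and 159 CPM, a 1.72-fold rise with no overlap (0.78 ± 0.057, adjusted p = 1.4e-08). SLC16A3 was at 382, 381 and 296 CPM against 260, 247 and 223 CPM, where replicate 3 of shFOXRED1 was nearer to the controls than the others but still above them (0.54 ± 0.081, adjusted p = 5.73e-05). PGD was at 294, 309 and 285 CPM against 229, 235 and 225 CPM, and HK2 at 158, 160 and 165 CPM against 145, 139 and 144 CPM. Neither overlapped (0.37 ± 0.051 and 0.18 ± 0.053, adjusted p = 2.28e-05 and 0.0156). In the rest of the pentose phosphate pathway RPE was lower (-0.32 ± 0.066), and RPIA at 0.11 ± 0.10, TKT at 0.13 ± 0.055, PGLS at 0.091 ± 0.081 and TALDO1 at 0.025 ± 0.049 were not called. Without replicate 3 of shFOXRED1, TKT (0.17), PGLS (0.17) and PFKL (0.26) were also called higher, giving 7 higher and 15 lower members, and SLC16A3 was at 0.65. Over all genes the calls then rose from 2650 higher and 3102 lower of 15730 to 3215 and 3638 of 16362. Groups did not overlap for 20 of 32 members, beside 46.7% of all genes. With library totals the share of all calls that were higher moved from 46.1% to 57.3%, and 6 members were higher and 15 lower.

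Differences between effects were then tested in fits of 12 libraries, in which no control library was shared. The HFD effect lay above the HA-TRIM15 effect for 19 of 32 members and below it for 0, beside 35.2% of all genes that differed, 21.5% above and 13.6% below. PGD differed most, by 0.80 ± 0.047 on the log2 scale (adjusted p = 5.94e-11), followed by PFKFB3 at 0.62 ± 0.05, and SLC2A1 did not pass the test (-0.013, 95% interval -0.12 to 0.091). Of 14 members called in both, 12 went in opposite directions, while 69% of all genes called in both went in the same one. That tally rests on TMM scaling: with library totals HK1, GPI, TPI1, GAPDH, TKT and TALDO1, all among the 12, lost their HFD call. PFKL, PFKM and PKM, lower with HA-TRIM15, were then called lower with HFD as well. With library totals in place of TMM factors, 17 members were above and 2 below, and the share of all calls above moved from 61.2% to 37.2%. The HA-TRIM15 effect lay above the shYY2 effect for 16 of 33 members and below it for 9, beside 64.4% of all genes that differed, 34.1% above and 30.3% below. Among the 9 was SLC2A3, which is not read as a result. PGAM1 (1.35 ± 0.05) and SLC16A1 (1.07 ± 0.041) had the largest differences in the one direction and TKT (-1.45 ± 0.051, adjusted p = 7.57e-16) among the well-counted genes in the other, where TKT had fallen with HA-TRIM15 but risen with shYY2. Of 14 members called in both, 12 were lower in both and 2 went in opposite directions, while 52.2% of all genes called in both shared a direction.

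The shYY2 effect lay below the shFOXRED1 effect for 17 of 33 members and above it for 6, beside 54.4% of all genes that differed, 28% below and 26.4% above. Both knockdowns lowered 12 of the 16 members called in both, and 4 went in opposite directions, which is near the 70.5% of all genes called in both that went in the same direction. RPIA (-1.20 ± 0.13), PGAM1 (-1.07 ± 0.061), PFKFB3 (-1.05 ± 0.065) and TPI1 (-0.89 ± 0.075) were moved further down by shYY2, whereas ALDOC (1.41 ± 0.12) and TKT (1.05 ± 0.066) stood higher with it. SLC16A1 fell in both, and the difference between its effects did not pass the test (-0.073, 95% interval -0.22 to 0.071). For GAPDH the difference was 0.13 with an interval of 0.011 to 0.25 and an adjusted p of 0.0754.

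**Figure D4:**
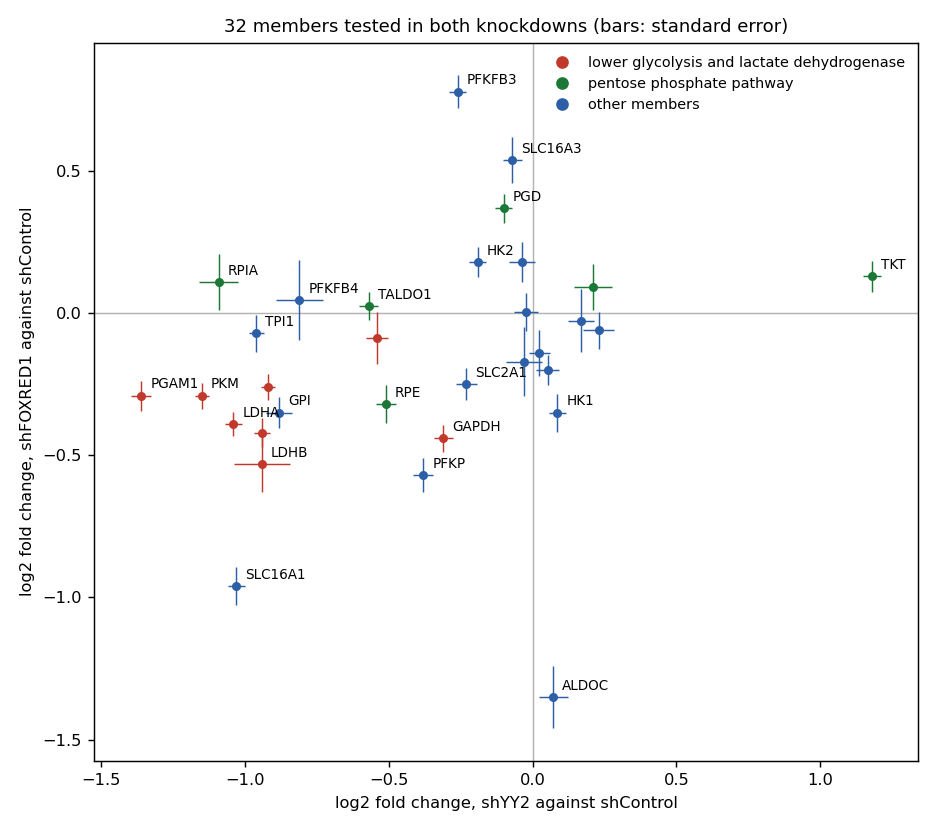
Log2 fold change with shFOXRED1 (vertical) against that with shYY2 (horizontal) for the 32 members tested in both, with bars of 1 standard error. Red points for lower glycolysis and lactate dehydrogenase all lie left of 0 and reach -1.36, TKT stands alone at 1.18 on the right, ALDOC at -1.35 at the bottom and PFKFB3 at 0.78 at the top.

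Ratios of isozyme counts within a library, which need no scaling, were computed for 8 pairs in the 4 experiments. Treated and control libraries did not overlap in 23 of these 32 comparisons, each with an exact permutation p of 0.1, the smallest possible with 3 against 3 libraries, and an adjusted p of 0.139. The 23 include SLC2A3 to SLC2A1 with shYY2, which is not read as a result. The share among other gene pairs was not computed. Of single genes, 56.2% (HFD), 37.7% (HA-TRIM15), 76.3% (shYY2) and 46.7% (shFOXRED1) had groups that did not overlap. The log2 ratio of SLC16A3 to SLC16A1 stood at 1.47 ± 0.044 with shYY2 against 0.51 ± 0.085 (SD, n = 3), and at 1.88 ± 0.35 with shFOXRED1 against 0.39 ± 0.14. It was also above its control with HFD (1.42 ± 0.063 against 1.11 ± 0.13) and below it with HA-TRIM15 (-0.079 ± 0.16 against 0.14 ± 0.018). HK2 to HK1 differed by -0.30 with HFD, by 0.045 with HA-TRIM15, by -0.28 with shYY2 and by 0.53 with shFOXRED1. PFKP to PFKL was higher with HFD (0.24) and HA-TRIM15 (0.19) and lower with shYY2 (-0.34) and shFOXRED1 (-0.74). The ratio of ALDOC to ALDOA had its widest gap with shFOXRED1, at -0.40 ± 0.18 against 0.93 ± 0.083. The level of this ratio is uncertain, as the gene that shares exons with ALDOA can hold some of its reads. That gene held 13.2% to 14.1% as many counts as ALDOA with shFOXRED1 and 16.2% to 19.9% in its controls. LDHA to LDHB, by contrast, moved by -0.099 with shYY2 with overlapping libraries, as both genes had fallen together.

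**Figure D5:**
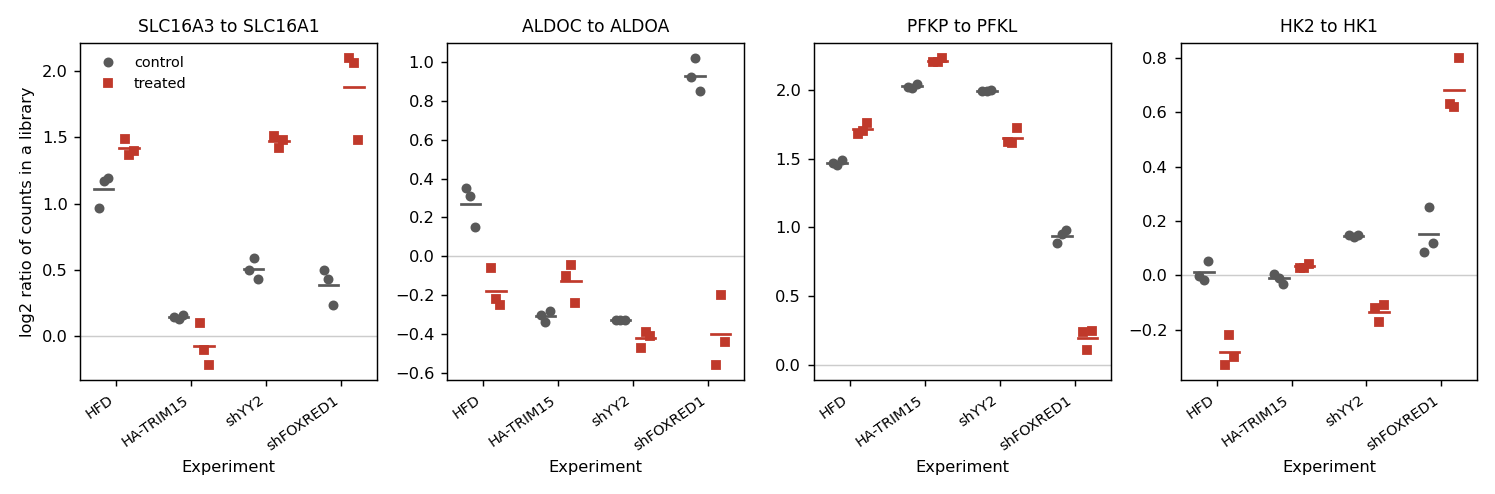
Log2 ratio of the counts of 2 isozymes or carriers in each library, for control (grey circles) and treated libraries (red squares) of the 4 experiments, with lines at the means. The SLC16A3 to SLC16A1 ratio is above its control in both knockdowns, and PFKP to PFKL is below it in both.

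Genes beside the main line were described from lists of other isozymes, brakes, branches, hypoxia genes and proliferation genes. As background for these lists, 25.6% (HFD), 12.5% (HA-TRIM15), 36.8% (shYY2) and 16.8% (shFOXRED1) of all genes tested were called higher. In the same order 23.9%, 9.53%, 38.1% and 19.7% were called lower. The counts of these lists use TMM scaling and were not repeated with library totals. That scaling moved the share of all HFD calls that were higher from 51.7% to 30.4%. Serine and hexosamine branch genes, which draw carbon out of glycolysis, were higher for 7 of 9 with HFD and 5 of 9 with HA-TRIM15, lower for 8 of 9 with shYY2 and lower for 6 of 9 with shFOXRED1, with none in the opposite direction in any of the 4. The leading gene was GNPNAT1 with HFD (57.4 ± 2.67 against 31.7 ± 0.724 CPM, log2 fold change 0.86 ± 0.047), a hexosamine enzyme. With shYY2 it was PSAT1, of serine synthesis (43.9 ± 0.498 against 162 ± 6.92 CPM, -1.88 ± 0.039), with HA-TRIM15 GFPT1, which opens the hexosamine branch (0.34 ± 0.034), and with shFOXRED1 PSPH, the last enzyme of serine synthesis (-0.62 ± 0.068). Among brakes and bypasses TXNIP, which lowers glucose uptake, was at 560 ± 12.2 CPM with HA-TRIM15 against 186 ± 0.246 CPM with EV (1.59 ± 0.031, adjusted p = 5.5e-14), one of 3 higher and 1 lower of the 12 tested there. With shYY2 the leading brake was PDK4, a kinase that holds pyruvate dehydrogenase inactive, at 314 ± 4.14 against 41.4 ± 0.542 CPM (2.93 ± 0.033, adjusted p = 6.83e-18), within a list of 6 higher and 6 lower. FBP1, of gluconeogenesis, led with HFD (-0.54 ± 0.05) among 5 higher and 6 lower, and ARRDC4, a relative of TXNIP, with shFOXRED1 (-0.49 ± 0.15) among 2 higher and 4 lower.

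Other pentose phosphate and ribose genes gave 1 higher and 6 lower of 7 with shYY2, led by PRPS1, which makes the activated ribose of nucleotides, at 22.9 ± 0.564 against 68.5 ± 0.31 CPM (-1.58 ± 0.044). In that list HFD had 4 higher and 1 lower, led by RBKS, ribokinase (-0.59 ± 0.14), HA-TRIM15 had 0 called, and shFOXRED1 had 1 higher and 3 lower, led by DERA, which splits deoxyribose phosphate (-0.71 ± 0.079). Of the 11 glycogen genes 4, 1, 1 and 2 were higher and 4, 1, 9 and 4 lower in the order HFD, HA-TRIM15, shYY2 and shFOXRED1. PPP1R3B, a glycogen-targeting subunit of protein phosphatase, led both knockdowns (1.76 ± 0.041 with shYY2 and 0.91 ± 0.069 with shFOXRED1), PPP1R3C the HFD list (-0.86 ± 0.15) and PYGB, glycogen phosphorylase, the HA-TRIM15 list (-0.11 ± 0.031). Of 20 other isozymes and carriers, 13, 12, 13 and 13 were tested, of which 5, 1, 6 and 4 were higher and 4, 4, 4 and 1 lower. LDHD, a lactate dehydrogenase for the other enantiomer, led with HFD (-1.24 ± 0.13) and with shFOXRED1 (1.47 ± 0.26), SLC2A12 with HA-TRIM15 (0.75 ± 0.17) and SLC2A4, the insulin-regulated carrier, with shYY2. SLC2A4 was at 3.35 ± 0.202 against 0.357 ± 0.227 CPM and passed the filter on low counts through the shYY2 libraries alone, so no fold change is given. The 3 polyol and fructose genes were all higher with HFD and all lower with shYY2, in both led by SORD, sorbitol dehydrogenase (0.56 ± 0.044 and -0.63 ± 0.041), and AKR1B1, aldose reductase, led the other experiments, with 1 gene lower with HA-TRIM15 (-0.13 ± 0.037) and 2 lower with shFOXRED1 (-0.35 ± 0.045).

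Hypoxia genes outside glycolysis did not follow the members in every experiment. They had 6 higher and 1 lower of 14 with HFD, 3 and 1 of 14 with HA-TRIM15, 6 and 4 of 14 with shYY2, and 3 and 4 of 13 with shFOXRED1. The shYY2 counts are near the background of 36.8% of all genes higher and 38.1% lower. DDIT4, a stress-induced inhibitor of mTORC1, led with HFD (0.71 ± 0.041), HA-TRIM15 (0.31 ± 0.041) and shFOXRED1 (-0.46 ± 0.073), and ADM, adrenomedullin, with shYY2 (1.23 ± 0.044), where most glycolytic genes were lower. With TMM scaling, proliferation genes moved in the direction of most called members in all 4 experiments. With HFD 8 of 10 were higher and 1 lower. In the other experiments 8 of 10 were lower with HA-TRIM15, 9 of 10 with shYY2 and 10 of 10 with shFOXRED1. With library totals the members had no majority direction with HFD, at 11 higher and 11 lower. CDK1, the mitotic kinase, led with HFD (0.44 ± 0.037), MCM5, of the replicative helicase, with HA-TRIM15 (-0.36 ± 0.041) and shFOXRED1 (27.6 ± 2.26 against 55.3 ± 1.62 CPM), and PCNA, the replication clamp, with shYY2 (83.7 ± 3.35 against 384 ± 11.4 CPM, -2.20 ± 0.036). The part of proliferation in the changes of the members was not tested.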

How the data were processed

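RNA-seq was made from 24 libraries in 4 experiments, 3 per group, and groups and replicate numbers were taken from the sample titles. The authors deposited a table of raw gene counts for each experiment, with whole numbers per Ensembl gene in every library. The header of the HA-TRIM15 table holds empty cells, so its 6 sample names were read in order. The submitters' processing notes name hg38 and mm10, and the aligner and counter were not given in the sources used here. Libraries held 14299807 to 45994561 counts, and precision is limited by 3 libraries per group. Genes kept by a filter (minimum count 10, minimum total 15) were fitted with edgeR 4.0.16 (R 4.3.3), TMM scaling and the quasi-likelihood test with Benjamini-Hochberg adjustment, and called at an adjusted p under 0.05. In simulated counts fold changes were recovered, but a larger share of edgeR's calls was false than the threshold allows, and DESeq2's share was near it. Far fewer genes were changed in the simulation than were called in the data (3474 to 11997). The false share in the data is therefore not known from it. The members, the lists and the tests were chosen with earlier results of these data known. Values in every library are given for the 4 largest rises and 4 largest falls called without overlap per experiment, with a few other steps added after their values were seen, and for each other list the called gene of largest change at 1 CPM or more. Ratios and shares used exact permutation tests. DESeq2 1.42.0, other scalings (library totals were added after the data were seen), other filters, a replicate block and the removal of each library were tried. Gene lengths and overlaps came from GENCODE 29 and promoters from RefSeq. Copies and antisense partners of a gene can take its reads.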

Additional observations from a re-analysis of the deposited data

How the results depend on the processing

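Counts of members changed little with DESeq2 size factors, DESeq2's own test or either filter. The replicate numbers only share a label: deviations of same-numbered libraries correlated at -0.043 to 0.118. With a replicate block in the fit the members higher and lower were 18 and 5 with HFD, 1 and 17 with HA-TRIM15, 6 and 21 with shYY2 and 6 and 15 with shFOXRED1, and PGAM1 lost its call with HFD. Library totals in place of TMM factors gave 11 higher and 11 lower with HFD, a member median of 0.016 there and of -0.099 with shFOXRED1, and 2 members with the HFD effect below the HA-TRIM15 effect, with PGAM1 at -0.0088 and PKM at -0.08 reversed under HFD. Asking for a fold of at least 1.2 left 7 members higher and 0 lower under HFD (7 of 32, beside 31.6% of all genes called at that fold). It left 1 lower under HA-TRIM15, beside 7.63% of all genes. Under shYY2 it left 2 higher and 17 lower, beside 63.3% of all genes. The 2 were TKT and SLC2A3, and SLC2A3 is not read as a result. Leaving out 1 library gave 16 to 19 higher and 4 to 6 lower members with HFD (median 0.12 to 0.14), for HA-TRIM15 0 to 1 higher and 11 to 21 lower (median -0.16 to -0.1), 5 to 6 higher and 20 to 22 lower with shYY2 (median -0.29 to -0.26), and 3 to 7 higher and 15 lower with shFOXRED1 (median -0.19 to -0.11). The HFD effect stayed above the HA-TRIM15 effect for 19 to 20 members, the HA-TRIM15 effect above the shYY2 effect for 16 to 17 and below it for 7 to 10, and the shYY2 effect above the shFOXRED1 effect for 5 to 7 and below it for 15 to 18. Isozyme ratios without overlap numbered 23 to 25, with SLC2A3 to SLC2A1 under shYY2, not read as a result, among them. The causes were not tested.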
